A study of Mus musculus with 11 samples.

Results

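Wt1, Tcf21, Tbx18, Gata6, Gata4, Tbx15 and Bnc1 encode transcription factors that serve as positional marks of stromal cells, and 6 of the 7 are associated with visceral organs and the lining of the body cavity. They were taken by symbol, and each matched 1 of the 23507 gene rows of the count matrix. WT1, a zinc finger factor, marks the mesothelium (the flat cell layer over the visceral organs and fat) and the mesenchyme that derives from it, and in lineage tracing part of the visceral fat, but not of the subcutaneous fat, descends from Wt1-expressing cells. TCF21, a basic helix-loop-helix (bHLH) factor, is found in the mesenchyme of many visceral organs and in visceral preadipocytes. TBX18, a T-box factor, is known from the epicardium and from mural cells (the pericytes and smooth muscle cells of vessel walls), GATA6 and GATA4 from the mesoderm of heart, gut and gonads, BNC1 from epithelia and the mesothelium, and TBX15 from subcutaneous rather than visceral preadipocytes.

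The genes were examined in single cells of the stromal vascular fraction, what remains of the tissue once adipocytes are removed, of perigonadal white adipose tissue (pgWAT), a visceral depot, of adult male and female mice on chow diet. All animals, male and female alike, carried the Pdgfrb-eGFP reporter transgene, which drives green fluorescence from the Pdgfrb promoter, on a C57BL6/J background. No subcutaneous cells were analysed here, so the depot itself could not be compared. CD45-negative cells had been sorted into plates by the PDGFRB reporter, CD31 and DPP4, and libraries were made with Smart-seq2, which counts reads of whole transcripts and has no molecular identifiers. The 3261 cells came from 11 plates and 7 mouse ids, the males 1, 4 and 8 and the females 2, 3, 5 and 6/7, where mouse 6/7 stands for a pair of animals. Plate 709 is labelled PDGFRB-positive and DPP4-positive, but its column name is written like those of PDGFRB-negative sorts, so its reporter gate is uncertain.

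The median cell had 616939 reads in genes (141935 to 3526227) and 5219 detected genes, and plates held 201 to 379 cells with median reads of 384142 to 802258 a cell. A single ribosomal RNA (rRNA) gene, CT010467.1, took 24.3 to 52.5% of the reads of adipose stem cells (ASC) per mouse, and levels are therefore given as CPM, counts scaled to a common total, over the gene reads outside this row unless stated otherwise. Cell classes were rebuilt by clustering without the 7 genes and are called "like" for this reason. There were 2251 ASC-like, 560 blood endothelial cell (EC)-like, 60 pericyte-like and 41 vascular smooth muscle cell (VSMC)-like cells. The fibroblast markers Pdgfra, Col1a1, Dcn and Lum summed to 14224 to 30509 CPM in ASC-like cells and 15.5 to 61.4 CPM in EC-like cells. The pericyte-like cells carried 4641 and 4711 CPM of the pericyte markers Kcnj8, Abcc9, Rgs5 and Higd1b in mice 1 and 2, but also 1607 to 6630 CPM of the EC markers Pecam1, Cdh5, Kdr and Cldn5. Only mice with at least 10 cells of a class enter the sums per mouse below. The sums cover these classes and, in the ranking of genes by Pearson's r, other named classes too. Intervals over cells or reads are exact 95% intervals. Where a share is 0, the limit given is that of 3 counts, and both cover counting error only.

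On GRCm38, Wt1 (ENSMUSG00000016458) lies at chr2:105126529-105173616 on the plus strand, Tcf21 (ENSMUSG00000045680) at chr10:22817281-22820174 on the minus strand and Tbx18 (ENSMUSG00000032419) at chr9:87702800-87731260 on the minus strand. Gata4 (ENSMUSG00000021944) lies at chr14:63198922-63271692 on the minus strand, Tbx15 (ENSMUSG00000027868) at chr3:99240381-99354259 on the plus strand and Bnc1 (ENSMUSG00000025105) at chr7:81966672-81992292 on the minus strand. All 7 are protein-coding. Tcf21, Tbx18, Gata6, Tbx15 and Bnc1 each overlap 1 gene on the opposite strand (Gm10824, D030062O11Rik, 1010001N08Rik, Gm43120 and 4833418N17Rik), and since counting is not stated to use strand, reads of such a partner cannot be told apart from theirs.

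Tcf21, Tbx18 and Bnc1 had promoter sequences in RefSeq among the tables used here, and they also contrast in expression, as a widely read gene, a gene read in a part of the cells and a gene of a few cells. The 250 bases before each transcript start (GRCm38.p6, minus strand for all 3) are shown with a GATA-type motif in capitals. The RefSeq start of Tcf21 lies inside the GENCODE gene, so its window includes the first bases of the GENCODE model.
Tcf21, chr10:22820144-22820393: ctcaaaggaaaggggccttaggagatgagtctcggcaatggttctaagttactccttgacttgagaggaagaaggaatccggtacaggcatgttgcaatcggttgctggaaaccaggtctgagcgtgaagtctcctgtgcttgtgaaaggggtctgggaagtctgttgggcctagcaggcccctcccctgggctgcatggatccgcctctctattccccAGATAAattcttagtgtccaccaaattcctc
Tbx18, chr9:87731261-87731510: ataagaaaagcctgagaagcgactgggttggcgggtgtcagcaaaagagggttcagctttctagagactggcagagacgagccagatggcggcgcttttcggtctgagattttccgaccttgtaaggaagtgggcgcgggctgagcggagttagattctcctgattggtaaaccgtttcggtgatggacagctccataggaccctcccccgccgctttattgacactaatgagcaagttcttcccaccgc
Bnc1, chr7:81992300-81992549: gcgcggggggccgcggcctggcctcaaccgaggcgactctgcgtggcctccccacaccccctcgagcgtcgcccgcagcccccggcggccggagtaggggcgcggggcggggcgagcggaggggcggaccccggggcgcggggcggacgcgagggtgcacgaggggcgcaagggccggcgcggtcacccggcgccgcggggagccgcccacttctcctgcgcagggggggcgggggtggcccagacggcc

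The 3 promoters differed in base composition. Tcf21 held 5 CpG dinucleotides (GC content 52.4%) against a median of 6 over 32851 promoters of this length, Tbx18 held 15 (54.0%) and Bnc1 held 39 (83.6%), more than 98.4% of all promoters. AGATAA, bound by factors of the GATA family and searched on both strands, occurred once in Tcf21, at positions -31 to -26 from the start, and 9.99% of all promoters hold it. This match lies in the part of the window shared with the GENCODE gene, at its first bases, and so not before the GENCODE start. No match on either strand was found for the T-box element AGGTGT, which 11.8% of promoters hold. The E-box motif CAGCTG, held by 13.0%, was not found either. GCGGGGGCG, a motif bound by WT1 and EGR factors and held by 2.57% of promoters, was likewise not found in these windows, nor was the motif TATAAA, held by 12.4%. A match is a description of the letters and not a binding site.

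Wt1, Tcf21, Tbx18 and Gata6 were all read in the ASC-like cells of every mouse, whereas Gata4, Tbx15 and Bnc1 were confined to a few cells. Tcf21 stood highest, at 48.2 CPM in mouse 1, a median of 111.3 and 207.6 CPM in mouse 3. Wt1 ran from 50.3 CPM in mouse 1 over a median of 82.6 to 126.6 CPM in mouse 4. Both genes were thus lowest in mouse 1, a male with the largest rRNA share, and highest in different animals.

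Gata6 (ENSMUSG00000005836), a GATA factor of visceral mesoderm that lies on chromosome 18, ran from 15.9 CPM in mouse 8 over a median of 21.7 to 29.9 CPM in mouse 3. Tbx18 ran from 4.87 CPM in mouse 1 over a median of 14.4 to 18.3 CPM in mouse 6/7. The spread between mice was therefore wider for Tbx18 and Tcf21 than for Gata6 and Wt1 on this scale.

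Gata4, the paralogue of Gata6, had a median of 0.764 CPM and a highest value of 3.04 CPM in mouse 1, and no read in 363 cells of mouse 4 and 161 cells of mouse 8. Tbx15 had a median of 0.0436 CPM and a highest value of 0.528 CPM in mouse 1. Bnc1 had reads in mouse 1 (1.6 CPM) and mouse 5 (5.87 CPM) and none in the other 5 mice.

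Divided by exon length, the order of the median levels in ASC-like cells was Tcf21 (47.4 CPM per kb), Wt1 (13.3), Gata6 (3.33), Tbx18 (3.06), Gata4 (0.196), Tbx15 (0.0116) and Bnc1 (0). The ranges of Tcf21 (20.5 to 88.4 CPM per kb) and Wt1 (8.13 to 20.4) lay next to each other without overlap, and those of Gata6 (2.44 to 4.59) and Tbx18 (1.03 to 3.87) overlapped. Gata6 was above Tbx18 per kb in 6 of 7 mice, the exception being mouse 6/7. The 3 lowest genes overlapped in range, with highest values of 0.778 CPM per kb for Gata4, 0.141 for Tbx15 and 1.26 for Bnc1.

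**Figure D1:**
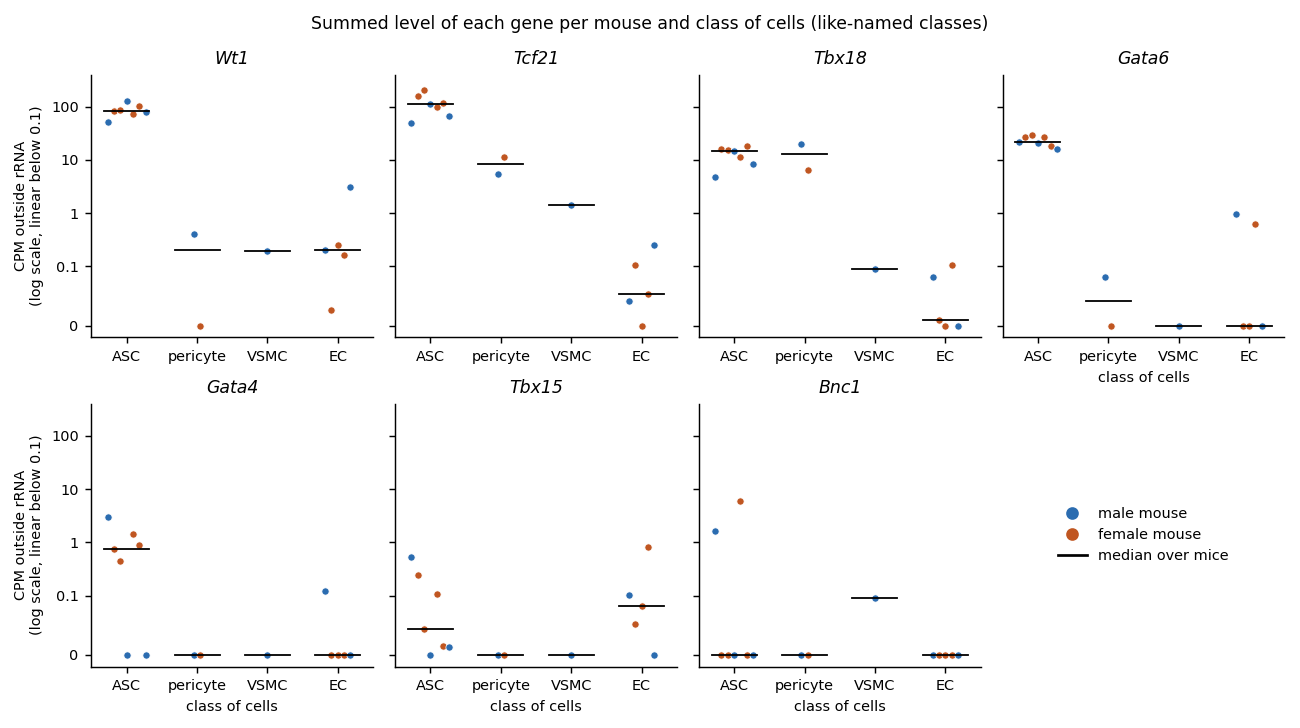
Summed level of each gene per mouse (points, male blue and female orange) in ASC-like, pericyte-like, VSMC-like and EC-like cells, in CPM outside rRNA on a log axis that is linear below 0.1, with the median as a bar. Wt1, Tcf21 and Gata6 stand highest in ASC-like cells, Tbx18 lies in ASC-like cells and, from a few cells, in pericyte-like cells, and Gata4, Tbx15 and Bnc1 are at or near 0 in most sums.

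Since deep cells show more genes, detection was measured after each cell was thinned to 150000 reads, which left out 2 ASC-like and 3 EC-like cells. Of 2249 ASC-like cells, 76.5% had a read of Tcf21 (74.7 to 78.2%), 63.9% of Wt1 (61.8 to 65.8%), 28.0% of Gata6 (26.2 to 29.9%) and 15.4% of Tbx18 (13.9 to 16.9%). Without thinning these shares were 87.1%, 77.7%, 39.9% and 23.6%. Gata4 was detected in 0.578% of thinned cells, Tbx15 in 0.356% and Bnc1 in 0.311%, against 1.24%, 0.844% and 0.355% without thinning.

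EC-like cells gave the shares to read those of ASC-like cells against. Of 557 thinned EC-like cells, 1.62% had a read of Wt1, 1.08% each of Tcf21, Gata6 and Tbx15, and 0.539% each of Tbx18 and Gata4. Bnc1 was found in 0 of them, which allows a share of up to 0.539%. Median depths before thinning were 669563 reads in ASC-like and 522616 in EC-like cells. The shares of Gata4 in ASC-like and EC-like cells were therefore of the same order. That of Tbx15 in ASC-like cells lay below its share in EC-like cells, so a share of this size did not set the 2 classes apart, although a few cells of both classes carried many reads.

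Detection varied between mice by more than the counting intervals for the commoner genes. Wt1 was found in 46.7% of thinned ASC-like cells of mouse 1 (40.3 to 53.2%) and in 80.7% of those of mouse 4 (76.3 to 84.7%), with a median over mice of 56.1%. Tcf21 ran from 54.9 to 84.0% with a median of 77.9%, Gata6 from 19.9 to 36.5% with 26.7%, and Tbx18 from 6.56 to 19.8% with 16.3%. Mouse 1 was lowest for Wt1, Tcf21 and Tbx18, and mouse 8 for Gata6.

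**Figure D2:**
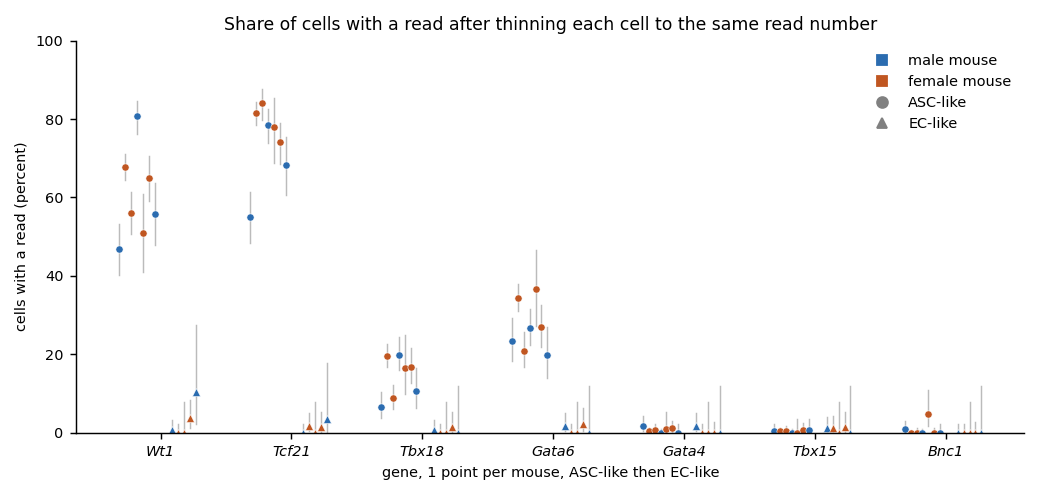
Share of cells with a read of each gene after thinning to 150000 reads, 1 point per mouse for ASC-like (circles) and EC-like (triangles) cells with exact 95% intervals as lines, male blue and female orange. Wt1 lies at 46.7 to 80.7% and Tcf21 at 54.9 to 84.0% in ASC-like cells, and EC-like points lie near 0 apart from Wt1 in mouse 8 (10.3% of 29 cells).

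Single ASC-like cells combined Wt1, Tcf21, Tbx18 and Gata6 in most ways. Without thinning, 2.67% of ASC-like cells had none of the 4, 15.3% had 1, 41.4% had 2, 32.2% had 3 and 8.40% had all 4. Wt1 and Tcf21 were read together in 68.8% of cells, Tcf21 without Wt1 in 18.3%, Wt1 without Tcf21 in 8.84% and neither in 4.04%. Of EC-like cells, 91.3% had none of the 4 genes.

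Among cells with a read, the levels were spread widely. The interquartile range of Tcf21-positive ASC-like cells was 28.3 to 203.9 CPM (median 99.0), that of Wt1-positive cells 9.20 to 158.3 CPM (median 69.7), that of Gata6-positive cells 3.50 to 80.6 CPM (median 21.9) and that of Tbx18-positive cells 2.69 to 90.4 CPM (median 10.9). Within each mouse, the Pearson's r of log2 thinned reads over ASC-like cells was low for every pair. Wt1 and Tcf21 gave 0.02 to 0.27 over the 7 mice (median 0.09), Wt1 and Gata6 gave -0.03 to 0.25, and the other 4 pairs lay between -0.09 and 0.10. Cells of a mouse share their library preparation, and in sparse counts such weak values are no finding.

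Nearly all Bnc1 reads came from a few cells that carried mesothelial genes. The list of mesothelial markers held 9 genes (Msln, Upk3b, Upk1b, Lrrn4, Krt19, Muc16, Cldn15, Gpm6a and Nkain4), and 9 cells had at least 10 reads of 6 or more of them. No cell had 4 or 5 of the markers at this level and all other cells had 3 or fewer, so the 9 cells stood apart, although the limit was set after the cells were seen. All 9 fell among the ASC-like cells, 6 of mouse 5 (plate 843), 2 of mouse 1 (plates 171 and 172) and 1 of mouse 6/7 (plate 42). They held 379 of the 381 Bnc1 reads of the whole series, in 7 of the 9 cells, and the other 2242 ASC-like cells held a single Bnc1 read. The last read lay in a VSMC-like cell.

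The other genes split in these 9 cells. Wt1 had at least 43 reads in each, at 162 to 546 CPM (median 437), against 28.6 CPM in the median of the other ASC-like cells. Tcf21 was read in 1 of the 9 cells (57.8 CPM), whereas 87.4% of the other ASC-like cells had a read, and Tbx18 and Tbx15 in 0, which allows a share of up to 33.3%. Gata6 was read in 5 of the 9 and Gata4 in 3. Pdgfra, the defining marker of ASC, was read in 2 of the 9 cells with at most 3 reads, against 99.6% of the other ASC-like cells, while Dcn, a matrix proteoglycan, had at least 10 reads in all 9.

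The 9 cells weighed on the sums of their mice. Without them, Bnc1 fell from 5.87 to 0.0286 CPM in mouse 5 and from 1.6 to 0 CPM in mouse 1, and Wt1 was 56.6 in place of 74.0 CPM in mouse 5 and 47.7 in place of 50.3 CPM in mouse 1. Gata4 was 0 in place of 1.41 CPM in mouse 5. Tcf21 was 104.5 in place of 99.6 CPM in mouse 5, the mouse with most of these cells. The summed mesothelial markers were 62.2 to 465.9 CPM in ASC-like cells with the 9 cells and 46.7 to 134.7 CPM without them, of which Cldn15, which EC-like cells carry too, gave 23.2 to 109.3 CPM.

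**Figure D3:**
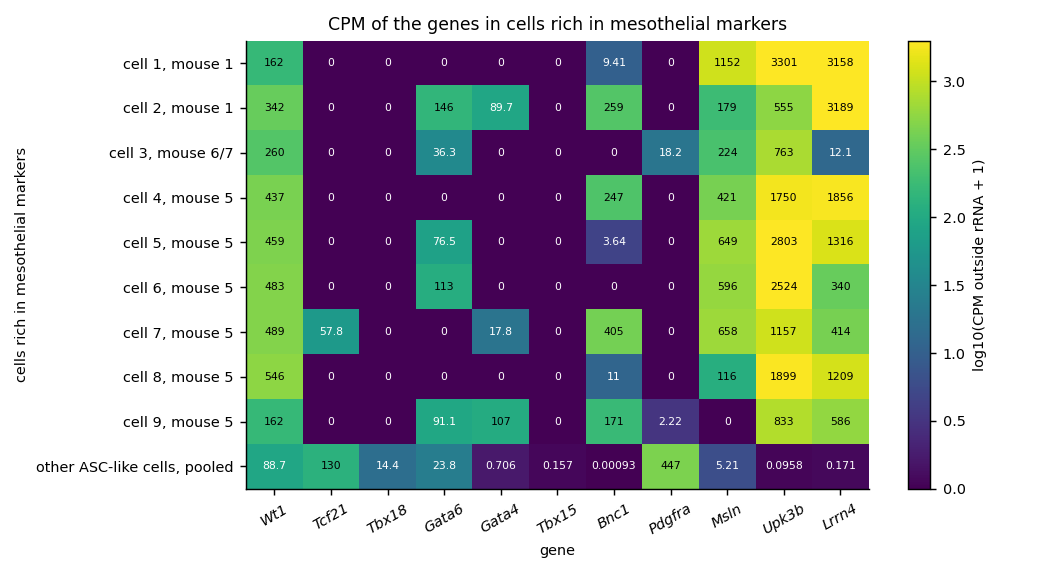
CPM outside rRNA (numbers, and colour on a log10 scale of CPM + 1) of the 7 genes, of Pdgfra and of the mesothelial markers Msln, Upk3b and Lrrn4, in each of the 9 cells rich in mesothelial markers and, in the last row, in the other ASC-like cells pooled. Wt1 stands at 162 to 546 CPM in all 9 cells, Bnc1 in 7 of them, and Tcf21, at 130 CPM in the pooled cells, in 1.

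Reads of Gata4 and Tbx15 were spread over more cells. Gata4 had at least 10 reads in 12 cells, 11 of them ASC-like from mice 1, 2, 3, 5 and 6/7 and 1 macrophage-like. Of the 11 ASC-like cells, 2 were among the 9 above, and the other 9 carried 59 to 474 reads of Pdgfra and 915 to 25940 reads of Dcn beside 18 to 204 reads of Gata4, which amounted to 23.5 to 287.7 CPM. Tbx15 had at least 10 reads in 4 cells, 3 ASC-like (69.7 to 110.5 CPM) and 1 EC-like (179 CPM). The 4 Tbx15 cells thus carried 27 to 64 reads each, among many cells without a read.

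ASC-like and EC-like cells of the same animal were compared to ask how far the genes belong to the stem cells rather than to blood vessels. In mice 1 and 2 nearly all cells of the 2 classes lay on different plates and sorts, so plate and class cannot be told apart there. In mouse 6/7 most ASC-like cells lay on plate 42 and the EC-like cells on plate 43. In mice 5 and 8 both classes shared a plate. In EC-like cells of mice 1, 2, 5, 6/7 and 8, Tcf21 was at 0.0408, 0.105, 0, 0.0537 and 0.253 CPM. Wt1 was at 0.204, 0.0261, 0.246, 0.161 and 3.03 CPM, and 83.3% of the 24 reads of mouse 8 came from 1 cell. Both genes lay below the ASC-like sum in every mouse, with no overlap.

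Tbx18 in EC-like cells was at 0.0815, 0.00871, 0, 0.107 and 0 CPM in the same order of mice. Gata6 was at 0.958, 0, 0, 0.618 and 0 CPM, where 87.2% of the 47 reads of mouse 1 and 87.0% of the 23 reads of mouse 6/7 came from 1 cell each. Gata4 had 6 EC-like reads, all in mouse 1, Bnc1 had none, and Tbx15 was at 0.102, 0.0523, 0.0821, 0.806 and 0 CPM.

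On summed counts with the mouse as a block, genes with more than 600 reads in 2 or more of the sums were compared by edgeR's quasi-likelihood test with Benjamini-Hochberg adjustment, where a call needs an adjusted p below 0.05 and a fold above 2.6. Among the 12206 genes tested, 22.7% were called and 13.9% were called higher in ASC-like cells, and 23.6% did not overlap between the groups. Wt1, Tcf21, Tbx18 and Gata6 passed this filter through their ASC-like sums alone, as none had more than 47 reads in an EC-like sum. A gene that passes in this way has to differ, so the sizes below describe these 4 genes and the number called is no support for the group. Tcf21 differed by a log2 fold change of 10.49 ± 0.59 (SE, 5 mice, adjusted p = 4.07e-05), Wt1 by 8.40 ± 1.05 (adjusted p = 0.000872), Tbx18 by 8.38 ± 1.15 (adjusted p = 0.00135) and Gata6 by 7.66 ± 1.66 (adjusted p = 0.0117), each higher in 5 of 5 mice. Gata4, Tbx15 and Bnc1 did not reach this depth and were not tested there. With a minimum of 10 counts, Gata4 was called higher in ASC-like cells (6.70, adjusted p = 0.0138), and Bnc1 (8.83, adjusted p = 0.0566) and Tbx15 (0.77, adjusted p = 0.799) were not. Gata4, with at most 6 reads in an EC-like sum, and Bnc1, with none, passed this filter through ASC-like sums alone too. The call of Gata4 is therefore no support either. Fitted folds of this size rest on few EC-like reads and depend on the prior count of the fit, and no call was lost without any 1 mouse. Gata6 moved most, to 6.44 without mouse 2 and 9.55 without mouse 1, Tbx18 moved to 7.57 and 9.40 without the same mice, and Wt1 to 7.59 without mouse 2 and 9.31 without mouse 8.

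Tbx18 was also read in pericyte-like cells, though in few of them. In pericyte-like cells Tbx18 was at 19.7 CPM in mouse 1 (44 cells) and 6.34 CPM in mouse 2 (13 cells, all reads in 1 cell), and in VSMC-like cells of mouse 1 it was at 0.0955 CPM, a single read in 38 cells. In mouse 1, 65.8% of the pericyte-like reads came from 1 cell. All 13 pericyte-like cells of mouse 2 lay on plate 874, sorted as PDGFRB-negative and CD31-positive, whereas the ASC-like cells of that mouse lay on plates 709 and 875. Of 60 thinned pericyte-like cells, 11.7% had a read of Tbx18 (4.82 to 22.6%), and of 41 VSMC-like cells 0, which allows a share of up to 7.32%. The 5 pericyte-like cells with at least 10 Tbx18 reads were at 68.1 to 362.2 CPM, 4 of them had at least 10 reads of the pericyte gene Kcnj8, 3 had at least 10 reads of the endothelial gene Pecam1 and 3 had no read of Pdgfra.

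The other genes varied in mural cells. Tcf21 was at 5.42 and 11.5 CPM in pericyte-like cells of mice 1 and 2, where 96.3% of the reads of mouse 2 came from 1 cell, and at 1.43 CPM in VSMC-like cells. In mouse 2 this lay above Tbx18 in the same cells, and 3 pericyte-like cells had at least 10 Tcf21 reads (35.6 to 191 CPM). Wt1 was at 0.411 and 0 CPM in pericyte-like cells and 0.191 CPM in VSMC-like cells. Gata6 had 1 read in the pericyte-like and VSMC-like cells of mice 1 and 2 together, Bnc1 had 1, and Gata4 and Tbx15 had none.

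Within mouse 1, with 82 mural cells summed, ASC-like cells held 163 times the Wt1 level (79.0 to 405.4 on read counts), 13.5 times that of Tcf21 (10.8 to 17.0), 491 times that of Gata6 (88.0 to 19396, on 1 mural read) and 0.457 times that of Tbx18 (0.391 to 0.536). Within mouse 2, with 13 mural cells, the Tcf21 ratio was again 13.5 (11.4 to 16.0), that of Tbx18 was 2.56 (2.04 to 3.25), and Wt1 and Gata6 were at least 326-fold and 107-fold higher in ASC-like cells, against a floor of 3 reads per sum. The intervals take reads as independent, which reads of the same cell are not, and the mural side of these ratios rested on single cells. Without the mural cell with most Tbx18 reads (158 reads, and 265 of Pecam1), chosen after seeing the data, the Tbx18 ratio of mouse 1 turned to 1.28 (1.01 to 1.64), and in mouse 2 no mural read of Tbx18 was left. Without the cell with most Tcf21 reads, the Tcf21 ratio was 22.9 in mouse 1 and 345 in mouse 2. The direction of Tbx18 in mouse 1 therefore turned on 1 cell.

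With 2 mice the quasi-likelihood test called none of 9701 genes (0%), though 14.2% had an unadjusted p below 0.05, and Wt1 (adjusted p = 0.116), Tcf21 (0.0945) and Gata6 (0.115) did not pass it either. Each lay higher in ASC-like cells in 2 of 2 mice, as did 34.5% of genes, and 45.6% of genes did not overlap. The 3 genes passed the filter through their ASC-like sums alone (at most 136 mural reads a sum), so this direction was set by the filter and supports nothing. The likelihood ratio test of edgeR and DESeq2 called 1018 and 1387 genes and the same 3 members, and Tbx18 did not reach the filter. EC markers in the pericyte-like cells (1607 to 6630 CPM) and ASC markers in them (182 to 415 CPM) stood beside these values, and their part in them was not tested.

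The study places its subtypes ASC1a and ASC1b together close to blood vessels, and ASC2, which carries DPP4, in the interstitial space. The subtypes were compared here as ranges of a marker score within each mouse. They are not types, and 353 of the ASC-like cells (15.7%) lay near a boundary. Wt1 was at 48.4 to 116.7 CPM (median 63.3) in ASC1a, 49.8 to 129.6 (median 95) in ASC1b and 44.6 to 133.9 (median 88.2) in ASC2. Tcf21 had medians of 92.2, 99.5 and 137.8 CPM in the same order, and ranges of 36.8 to 182.6, 41.7 to 172.7 and 60.2 to 267.5 CPM. The ranges overlapped throughout for both genes.

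Tbx18 had medians of 9.38, 8.52 and 16.2 CPM in ASC1a, ASC1b and ASC2, and highest values of 20.9, 24.0 and 23.8 CPM. Gata6 had medians of 22.4, 31.6 and 17.9 CPM, with highest values of 36.7, 40.3 and 28.2 CPM. Gata4 medians were 0.0134, 0.910 and 0.390 CPM, and Tbx15 and Bnc1 had medians of at most 0.0393 CPM. The genes were therefore present in all 3 ranges, with no range without reads of Wt1, Tcf21, Tbx18 or Gata6 in any mouse.

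None of the 4 tested genes was called between the ranges, against 3.28% (ASC2 against ASC1a), 0.332% (ASC1b against ASC1a) and 2.94% (ASC2 against ASC1b) of 11156 genes (edgeR's quasi-likelihood test, mouse as block; 0 of 4 also with the likelihood ratio test and DESeq2). The difference of Wt1 in ASC1b over ASC1a was 0.34 ± 0.13 on the log2 scale (SE, 7 mice, higher in 6 of 7, unadjusted p = 0.0207, adjusted p = 0.302) and that in ASC2 over ASC1a was 0.28 ± 0.13 (5 of 7, adjusted p = 0.251). The Tcf21 difference of ASC2 was 0.32 ± 0.14 against ASC1a (6 of 7, adjusted p = 0.201) and 0.30 ± 0.14 against ASC1b (6 of 7, adjusted p = 0.247). The Gata6 difference of ASC2 over ASC1b was -0.66 ± 0.31 (lower in 6 of 7, adjusted p = 0.254). Of the 12 contrasts, 5 had an unadjusted p below 0.05, beside 19.9%, 11.3% and 19% of all genes in the 3 comparisons, and none passed the adjustment. The 12 contrasts come from 4 genes in the same fit. Each contrast of a gene follows from its other contrasts, so the 12 are not independent and their count is not read further. The 95% intervals of all Wt1 and Tcf21 differences lay between -0.34 and 0.62, and those of Tbx18 and Gata6 between -1.32 and 1.13. The 9 cells rich in mesothelial markers, high in Wt1, lay mostly in the ASC1b and ASC2 ranges. In mouse 5, those in ASC2 held 126, 261, 99 and 73 of the 1213 Wt1 reads of that range. Those in ASC1b of mouse 5 held 78 and 110 of its 888 Wt1 reads. The contrasts between ranges were not run without these cells.

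**Figure D4:**
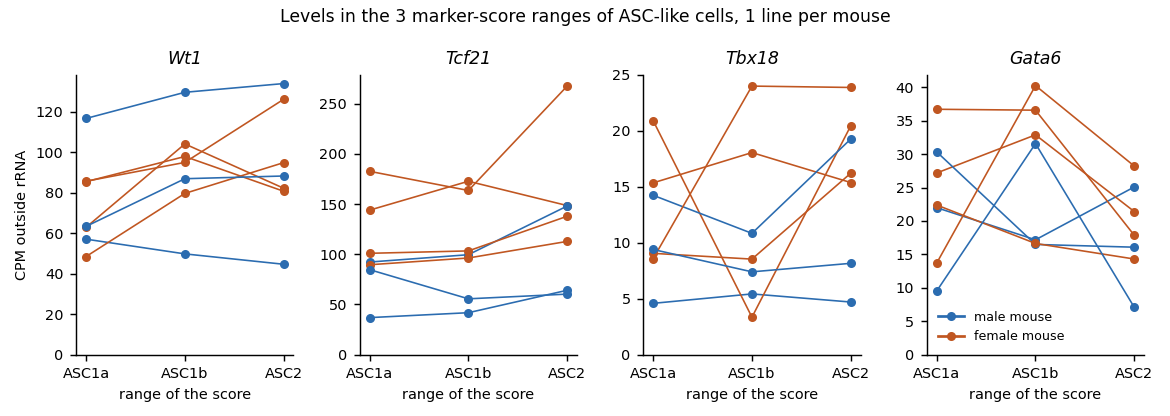
Levels of Wt1, Tcf21, Tbx18 and Gata6 in CPM outside rRNA (y axis from 0) in the ASC1a, ASC1b and ASC2 ranges, with 1 line per mouse, male blue and female orange. Wt1 lies highest in mouse 4 in all 3 ranges, at 116.7 to 133.9 CPM, and Tcf21 in ASC2 in mouse 3, at 267.5 CPM, and the Gata6 lines of 6 of 7 mice fall from ASC1b to ASC2.

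The DPP4 sorts of mouse 2 gave a comparison by protein, with 1 plate a sort and so no replicate. Dpp4 was at 265.7 CPM on the DPP4-positive plate 709 (379 ASC-like cells) and at 2.19 CPM on the DPP4-negative plate 875 (368 ASC-like cells). Wt1 was at 88.4 and 77.4 CPM, Tcf21 at 164.0 and 146.4 CPM, and Tbx18 at 15.3 and 17.0 CPM. Gata6 was at 23.0 CPM on the positive and 30.9 CPM on the negative plate, and was read in 39.6% (34.6 to 44.7%) against 54.1% (48.8 to 59.3%) of cells, or 29.8% against 39.1% after thinning. The unthinned Gata6 intervals did not overlap, and those of the thinned shares did (25.3 to 34.7% and 34.1 to 44.3%). The difference is one between these plates and not tested between conditions.

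Sex was compared in the ASC-like cells, since the study centres on differences between male and female stem cells. In CPM scaled with the TMM factors of edgeR, over all gene reads, Wt1 was at 39.0, 78.8 and 69.8 CPM in males 1, 4 and 8 and at 47.1, 49.0, 40.6 and 53.7 CPM in females 2, 3, 5 and 6/7. Tcf21 was at 37.2, 69.3 and 60.6 CPM in males and 88.3, 116.4, 54.7 and 60.1 CPM in females. Male 1 was the lowest of all 7 animals for both genes, and the sexes overlapped.

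Tbx18 was at 3.76, 8.97 and 7.46 CPM in males and 9.25, 8.73, 6.24 and 9.57 CPM in females. Gata6 was at 16.8, 13.0 and 14.2 CPM in males and 15.5, 16.8, 14.7 and 9.40 CPM in females. The sexes overlapped for these genes too, whereas 16.2% of the 11822 genes tested did not overlap.

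No member was called for sex by edgeR's quasi-likelihood test, its likelihood ratio test or DESeq2, against 2.23% of genes tested, and no member but 19.4% of genes had an unadjusted p below 0.05. The log2 fold change of males over females was 0.39 ± 0.28 for Wt1 (SE, 3 against 4, 95% interval -0.24 to 1.02, adjusted p = 0.471 by edgeR's quasi-likelihood test), -0.52 ± 0.34 for Tcf21 (-1.28 to 0.24, adjusted p = 0.425), -0.33 ± 0.36 for Tbx18 (-1.13 to 0.47, adjusted p = 0.647) and 0.06 ± 0.27 for Gata6 (-0.55 to 0.67, adjusted p = 0.927). All 4 intervals lay inside the 2.6-fold limit of a call. The median of all genes was 0.04 with TMM factors and -0.60 with library totals alone, and with totals alone Wt1 (-0.16) and Gata6 (-0.60) changed sign. Sorts and rRNA shares differed between the animals (in males 25.8 to 52.5%, in females 24.3 to 46.0%), and their part in these values was not tested.

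**Figure D5:**
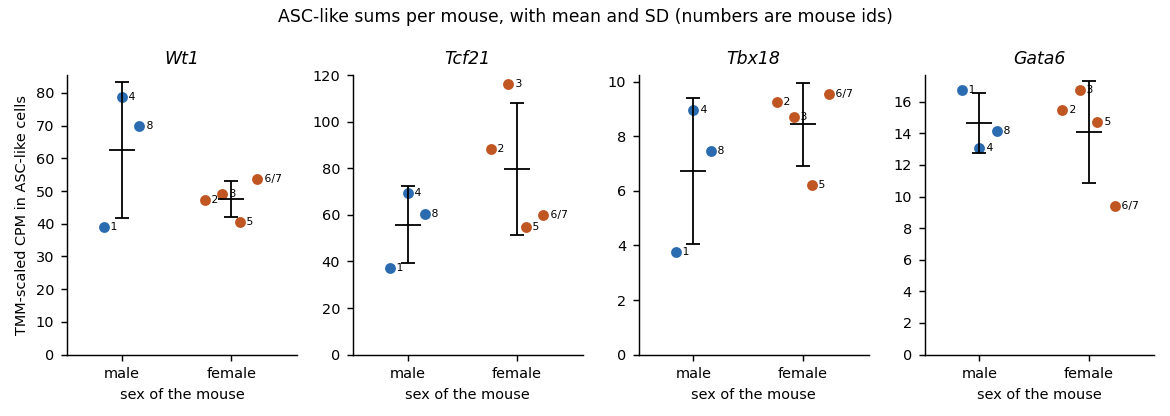
TMM-scaled CPM of Wt1, Tcf21, Tbx18 and Gata6 in the ASC-like sums of 3 males (blue) and 4 female ids (orange), with mouse ids beside the points and mean and SD as bars, y axes from 0. Male and female points overlap for all 4 genes.

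Related transcription factors were grouped by family and role to show these genes beside their kin. Of 19 factors of coelomic and visceral mesenchyme, 10 were tested between ASC-like and EC-like cells and 9 were called higher in ASC-like cells, beside 13.9% of all genes tested. None of the 9 had more than 600 reads in any EC-like sum, so they passed the filter through ASC-like sums alone, and the count is no support for the list. The same holds for every other list gene named below as higher in ASC-like cells, and in reverse for Tcf15 and Podxl, which had no ASC-like sum above 600 reads. The factors higher in ASC-like cells included Osr2 (10.76 ± 0.93), Prrx2 (10.46 ± 1.43), Osr1 (8.80 ± 0.70), a factor of intermediate mesoderm, and Prrx1 (7.89 ± 1.19). Of the bHLH kin of Tcf21, 3 of 5 tested were higher in ASC-like cells, Twist1 (9.83), Msc (7.29) and Twist2 (6.78), and Tcf15, a factor of capillary endothelium, was lower (-9.76). Bnc2, the paralogue of Bnc1, was higher (5.67 ± 0.59) and lay at 11.4 to 36.4 CPM outside rRNA in ASC-like cells, where Bnc1 was near 0.

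Of 3 tested kin of the GATA factors and their cofactors, Zfpm2 (FOG2, which binds GATA4 and GATA6) was higher (3.90 ± 0.88) and Gata2, a GATA factor of blood and endothelium, was lower in ASC-like cells (-2.12 ± 0.43). Of 2 tested T-box kin, Tbx3 was lower (-2.79 ± 0.41). Of 8 tested partners and reported targets of WT1, Aldh1a2, the retinoic acid enzyme (8.10), and Basp1, a WT1 cofactor (6.53), were higher and Podxl, a sialomucin of podocytes and endothelium, was lower (-9.49). Among factors linked to subcutaneous fat, Meox1 was lower in ASC-like cells (-2.59, higher in 1 of 5 mice).

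Within ASC-like cells few of these factors moved. Osr2 was lower in males, at 32.8 against 124.8 CPM (TMM-scaled, log2 fold change -1.93 ± 0.35, adjusted p = 0.0237 by edgeR's quasi-likelihood test). It was the 1 called of 11 tested coelomic factors, beside 2.23% of all genes called for sex. No gene of the other 6 lists was called for sex by this test. In those lists 3 genes had an unadjusted p below 0.05, beside 19.4% of all genes. Spry1, a WT1 target and inhibitor of receptor tyrosine kinase signalling, was lower in ASC2 than in ASC1a (-2.01 ± 0.25) and than in ASC1b (-1.50 ± 0.25), and Meox1 was too (-2.94 and -2.96). Basp1 was higher in ASC2 than in ASC1b (2.67 ± 0.58). In TMM-scaled CPM, Basp1 stood at 6.53 in ASC2 and 1.24 in ASC1b. Meox1 stood at 2.32 in ASC2, 11.1 in ASC1a and 11.5 in ASC1b. Of all genes, 3.28% were called between ASC2 and ASC1a and 2.94% between ASC2 and ASC1b. Whether sums of a single range carried these genes past the filter was not checked, so the calls are no support for the lists. By edgeR's quasi-likelihood test none of the lists held a called gene between ASC1b and ASC1a, where 0.332% of all genes were called. There 3 list genes had an unadjusted p below 0.05, beside 11.3% of all genes. Between ASC-like and mural-like cells no list gene was called either, where 0% of all genes were. There 11 list genes had an unadjusted p below 0.05, beside 14.2% of all genes.

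Over the 17 sums of a mouse and a named class, the genes with patterns most like those of the 4 genes that passed the filter were ranked by Pearson's r of log2(CPM + 1) among 12858 genes, as a description. Wt1 was closest to Nova1 (r = 0.995), Lrrn4cl (0.992) and Pi16 (0.991), the last of these a marker used for the ASC2 score. Tcf21 was closest to Gpm6b (0.991), Meg3 (0.989) and Mfap2 (0.988), Tbx18 to Plac9a (0.982), Gm9780 (0.977) and Gm16567 (0.975), and Gata6 to Pappa (0.993), Larp6 (0.992) and Epdr1 (0.991). Between the members, r was highest for Wt1 and Gata6 (0.980) and lowest for Tbx18 and Gata6 (0.826). The sums of a class share their class, so high values mainly separate ASC-like from other sums. Over the 7 ASC-like sums alone, Wt1 and Gata6 gave 0.558, the lowest value of any pair, and the other pairs gave 0.722 to 0.936.

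Markers of other cell types in the ASC-like sums were low for macrophages (4.87 to 11 CPM over 4 genes), EC (4.89 to 38.4), lymphatic EC (0.970 to 1.74), pericytes (2.37 to 34.2) and epithelium (0 to 2.67). VSMC markers summed to 29.4 to 309.1 CPM, and adipocyte markers to 553 to 2628 CPM over 10 genes. Most of the adipocyte sum was Lpl (503 to 2567 CPM), beside Lipe (15.9 to 366 CPM). Adipoq and Lep had medians of 0.0412 and 0.0272 CPM. Gonadal somatic markers, which bear on a depot beside the gonads, summed to 46.9 to 264.2 CPM over 6 measured genes. The sums were 264.2, 104.0 and 71.6 CPM in males 1, 4 and 8 and 114.8, 46.9, 117.4 and 81.0 CPM in females 2, 3, 5 and 6/7. Most of this was Sox9 (23.7 to 228.5 CPM) and Star (11.3 to 87.8 CPM). Inhba reached at most 9.74 CPM in a mouse, Inha 4.32, Nr5a1 3.12 and Cyp11a1 0.299 CPM. Duct epithelium markers summed to 0.464 to 20.9 CPM, and to at most 1.45 CPM without the 9 cells rich in mesothelial markers. The part of any of these in the levels of the 7 genes was not tested.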

How the data were processed

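Raw counts of reads per gene and cell were deposited by the authors for 3261 Smart-seq2 libraries from 11 plates. Per the labels and methods, reads were demultiplexed with bcl2fastq, aligned with STAR to mm10 and quantified with Salmon through tximport, and versions are not given in the sources used here. The methods state filters on reads, detected genes, mitochondrial and ERCC shares and on outliers in genes per read, and no further cell was removed here. ERCC rows were left out. The 7 genes and all gene lists were chosen with earlier results of these data known.

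Cells were clustered with Seurat 5.3.0 without the 7 genes, and clusters were named from 4 markers a class (3 measured for epithelial and lymphatic endothelial cells). The 171 cells of 2 clusters stayed unnamed, 1 with adipocyte genes among its leading genes and 1 with a high mitochondrial share. Doublets were not called. The 3 ranges of ASC-like cells are the highest of 3 marker z-scores within a mouse. Members were identified with GENCODE vM21, which matched 23461 of 23507 gene rows. Counts were summed per mouse and class with at least 10 cells and compared by edgeR 4.0.16 (TMM factors, quasi-likelihood fit, two-sided, Benjamini-Hochberg over all genes tested), whose code was first tested on simulated data. Class and range contrasts had the mouse as a block, since both sums came from the same animal. SE were derived from the fold change and F statistic. The named genes were the 7 members, the 3 genes most like each by r, and for each list those called with the largest change, up to 4. Depth in reads per cell is given above, and intervals cover counting error only. Alternatives were DESeq2 1.42.0, the likelihood ratio test, other scaling factors, a filter of 10 counts, no block, classes from the markers of each cell, exclusion of mixed cells and of each mouse, and, chosen after seeing the data, exclusion of the cells rich in mesothelial markers, thinning to 100000 reads outside rRNA and exclusion of the mural cell with most reads of a gene. The exclusion of cells rich in mesothelial markers was not run for the contrasts between ranges. R 4.3.3, Python 3.11.15, numpy 2.4.6, pandas 2.3.3 and scipy 1.17.1 were used. One result of the gene lists is not reported here.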

Additional observations from a re-analysis of the deposited data

Results flagged for a closer look

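In groups of 4 to 10 sums, 2 of 24 had a sample apart from the others by Dixon's test, of which chance gives about 1 in 20. Wt1 in the EC-like cells of mouse 8 stood at 2.09 TMM-scaled CPM, with 20 of its 24 reads in 1 of 29 cells, a cell with 231 reads of Pecam1 and 1 of Pdgfra. Tcf21 in the ASC2 range of mouse 3 stood at 148.5 TMM-scaled CPM.

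The unnamed cells, which entered no comparison, carried the genes above the level of EC-like cells in some mice. In mouse 6/7 (76 unnamed cells) Wt1 stood at 54.9 CPM outside rRNA, Tcf21 at 37.9, Tbx18 at 10.3 and Gata6 at 7.63. In mouse 5 (36 unnamed cells) Gata6 stood at 49.6, Tcf21 at 10.9 and Wt1 at 8.85. A single cell gave 63.8% of the Gata6 reads of mouse 5 and 44.9% of the Wt1 reads of mouse 6/7. One of the 2 unnamed clusters (49 cells) carried ASC markers and the other (122 cells) EC markers. No subtype contrast among the 12 compared moved in opposite directions in all males and all females.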

How the results depend on the processing

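No member was called for sex or between the ranges under any alternative run, and the 4 tested members stayed called between ASC-like and EC-like cells, joined by Gata4 with a filter of 10 counts. Each of these, Gata4 included, passed its filter through ASC-like sums alone, so the calls are no support. Males over females, library totals alone turned Wt1 to -0.16 and Gata6 to -0.60, and leaving out 1 mouse moved Gata6 from -0.11 to 0.15. Between ASC1b and ASC1a, the small Tcf21 difference turned to -0.0106 with totals alone, -0.0025 without the replicate block and -0.033 to 0.13 without 1 mouse, and Tbx18 ran from -0.34 to 0.22. Genes called for sex numbered 551 with the likelihood ratio test, 594 with DESeq2, 174 with a filter of 10 counts and 92 to 345 without 1 mouse (147, 148, 136, 92 and 113 without mice 2, 4, 5, 6/7 and 8). Against mural-like cells, 44 genes were called with library totals alone, 1018 with the likelihood ratio test and 1387 with DESeq2, the last 2 with 3 members. Without the replicate block, 175 (ASC2 against ASC1a), 2 (ASC1b against ASC1a) and 109 (ASC2 against ASC1b) genes were called, and no member's call changed. For ASC1b against ASC1a the other counts were 90 (likelihood ratio test), 108 (DESeq2) and 23 to 39 without 1 mouse, 23 being without mouse 6/7. Without the mural cell with most reads, the ratio of ASC-like to mural level of Tbx18 in mouse 1 turned from 0.457 to 1.28. The causes were not tested.

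Detection in ASC-like cells rose without thinning to 77.7% (Wt1), 87.1% (Tcf21), 23.6% (Tbx18), 39.9% (Gata6), 1.24% (Gata4) and 0.844% (Tbx15). With at least 10 reads required it was 51.3%, 65.5%, 11.1%, 19.7% and, for Tbx15, 0.133%. Against mural-like cells no fit was possible without mouse 1 or 2 or with classes from the markers of each cell, for want of residual degrees of freedom. Counts of few reads limit Gata4, Tbx15 and Bnc1, which did not reach the filter of 600 counts.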
